A study of Mus musculus with 12 samples.

Results

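The 10 genes described here are regulators and surface genes of early red cell development: the transcription factor genes Gata1, Klf1, Gfi1b and Nfe2, the cofactor gene Zfpm1, the receptor genes Epor and Tfrc, the surface gene Ermap and the carbonic anhydrase genes Car1 and Car2. They were chosen by symbol, and each symbol matched 1 of the 55450 genes of the count table. All 10 passed the filter on low counts, with 14346 genes tested in all, and their lowest estimated count in any library was 222, for Epor. The cells were donor-derived bone marrow progenitors, sorted for the receptor Kit and the absence of lineage markers from mice that had received competitive transplants. Their RNA was sequenced as stranded total RNA after removal of ribosomal RNA. The genotype labels number 4, and each covers 3 libraries. They are WT, Tet2KO (loss of the DNA dioxygenase gene Tet2), Id1KO (loss of Id1, which encodes an inhibitor of helix-loop-helix transcription factors) and dKO, the label for loss of both genes. The labels used here name no allele, Cre driver, strain, age or number of mice, and all 4 groups shared the transplant and the sort.

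The titles give each genotype a single sample number, so its 3 libraries may be repeats of 1 cell sample, and p-values then measure only the spread between these libraries. Library totals ran from 15706407 to 19959183 estimated counts. Scaled counts per 1000000 (CPM) of Tet2 were 99.3 ± 2.2 (SD, n = 3 here and below) in libraries labelled WT, 130 ± 2.51 in those labelled Tet2KO, 91.9 ± 1.55 in Id1KO and 118 ± 3.08 in dKO, so the Tet2 transcript total did not bear out the labels. The Id1 transcript total was 1.47 ± 0.268 CPM in the libraries labelled WT and between 3.86 and 3.96 CPM on average in the other groups, which did not bear out the labels either. Counts per gene cannot show whether part of a transcript was deleted, and this was not tested. Each direction below is therefore between libraries as labelled. Kit was high in all groups, with means of 315 to 365 CPM, whereas the lineage genes Ly6g, Cd4, Cd8a and Cd3e had at most 9 counts in any library. Itgam averaged 25.1 to 34.1 CPM.

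Red cell development from Kit-positive progenitors is driven by GATA1, a zinc finger factor that binds GATA words in DNA and works with its cofactor FOG1, the product of Zfpm1. GATA1 takes over many sites from GATA2 as progenitors mature, and it acts with TAL1, LMO2 and LDB1 in 1 complex and against the myeloid factor PU.1, encoded by Spi1. KLF1 binds CACC-type boxes of globin and red cell membrane genes. GFI1B is a repressor that brings in the histone demethylase LSD1, and NF-E2, whose large subunit is the product of Nfe2, serves globin genes and platelet formation. The erythropoietin receptor keeps committed progenitors alive through JAK2 and STAT5, and the transferrin receptor takes up the iron needed for heme. CAR1 and CAR2 are cytoplasmic enzymes that interconvert carbon dioxide and bicarbonate and are abundant in the erythroid line, and ERMAP is an adhesion-like protein of the red cell membrane.

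Per kilobase of exonic length, the carbonic anhydrases were the most abundant of the 10 genes and the receptor for erythropoietin the least. The mean over the 12 libraries was 352 CPM per kilobase for Car1, 179 for Car2, 50.5 for Tfrc, 41 for Klf1, 37.7 for Nfe2, 29.4 for Gfi1b, 28.2 for Zfpm1, 24.8 for Ermap, 19 for Gata1 and 11.4 for Epor. In the libraries labelled WT, Tfrc at 46.5 ± 0.54 and Klf1 at 46.4 ± 1.6 CPM per kilobase lay within 1 SD of each other. The SDs of Zfpm1 at 28.9 ± 0.89 and Ermap at 27.5 ± 1.2 CPM per kilobase overlapped too. In the libraries labelled Tet2KO, Ermap had dropped from near Zfpm1 to near Gata1, at 14.5 ± 0.28 against 12.7 ± 0.55 CPM per kilobase. Together the 10 genes held 0.177 to 0.181% of all counts per library labelled WT, 0.118 to 0.119% for Tet2KO, 0.203 to 0.207% for Id1KO and 0.181 to 0.185% for dKO. The Tet2KO group lay below the others in this share, and the Id1KO group above them.

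Promoter windows in RefSeq (GRCm38.p6, from 250 bases before to 50 after a transcript start) were found for 7 of the 10 genes, with 8 windows in all. Nfe2, Car1 and Car2 had none. The windows of Gata1, Klf1, Gfi1b, Epor and Ermap are shown because these genes moved together across the libraries, and each is written 5′ to 3′ along its gene. Capitals mark 2 kinds of words: the GATA words AGATAA and AGATAG together with TGATAA and TGATAG, and the CACC-type word CCNCNCCC, both sought on either strand. Overlapping matches run together in capitals, and the Epor window follows a RefSeq start that lies before the gene's GENCODE span.
Gata1, chrX:7967861-7968160, minus strand: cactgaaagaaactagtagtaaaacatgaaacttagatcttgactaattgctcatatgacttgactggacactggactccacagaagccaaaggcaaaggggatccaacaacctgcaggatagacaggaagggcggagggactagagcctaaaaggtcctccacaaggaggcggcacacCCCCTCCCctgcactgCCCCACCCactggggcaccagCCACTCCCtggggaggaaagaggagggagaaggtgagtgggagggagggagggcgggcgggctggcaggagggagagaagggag
Klf1, chr8:84901732-84902031, plus strand: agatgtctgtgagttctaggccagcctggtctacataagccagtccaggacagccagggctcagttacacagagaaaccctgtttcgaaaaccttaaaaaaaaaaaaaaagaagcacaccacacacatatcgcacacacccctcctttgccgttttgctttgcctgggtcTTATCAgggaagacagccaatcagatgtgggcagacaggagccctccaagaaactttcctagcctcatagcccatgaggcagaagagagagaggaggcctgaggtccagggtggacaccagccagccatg
Gfi1b, chr2:28621933-28622232, minus strand: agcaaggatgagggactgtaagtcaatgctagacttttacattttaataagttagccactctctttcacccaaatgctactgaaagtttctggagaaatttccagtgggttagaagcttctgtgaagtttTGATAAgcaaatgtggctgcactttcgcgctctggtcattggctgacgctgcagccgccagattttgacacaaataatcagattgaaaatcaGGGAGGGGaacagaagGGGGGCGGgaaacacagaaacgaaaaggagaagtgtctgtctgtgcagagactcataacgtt
Epor, chr9:21963527-21963826, minus strand: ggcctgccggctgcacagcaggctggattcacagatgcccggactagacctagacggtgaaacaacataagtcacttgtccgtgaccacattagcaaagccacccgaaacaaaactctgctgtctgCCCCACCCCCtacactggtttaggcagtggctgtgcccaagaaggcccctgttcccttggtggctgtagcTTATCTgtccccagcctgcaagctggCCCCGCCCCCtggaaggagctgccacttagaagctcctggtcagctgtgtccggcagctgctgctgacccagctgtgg
Ermap, chr4:119189946-119190245, minus strand: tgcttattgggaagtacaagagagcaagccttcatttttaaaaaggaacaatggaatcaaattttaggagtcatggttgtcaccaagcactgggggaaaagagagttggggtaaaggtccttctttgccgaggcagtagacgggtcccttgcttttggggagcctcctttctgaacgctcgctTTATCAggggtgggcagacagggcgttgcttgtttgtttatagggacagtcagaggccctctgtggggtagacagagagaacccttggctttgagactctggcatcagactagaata
A GATA word stood in 4 of the 7 genes' windows. It began 80 bases before the start in Klf1 and 67 in Ermap, both as TTATCA, 54 in Epor as TTATCT, and 120 in Gfi1b as TGATAA. The windows of Gata1, Zfpm1 and Tfrc held none of these letters. Of 32851 windows of the same length over the genome, 29.8% held a GATA word. The CACC-type word occurred in the windows of Gata1, Gfi1b, Epor, Zfpm1 and Tfrc, and in 49.5% of all windows. In Gata1 it began 71, 55 and 34 bases before the start. As N stands for any base, a match need not hold CACC itself. The matches of Gfi1b and Zfpm1 held no CACC on either strand, and in Gata1 only that at 55 bases held it. Klf1 and Ermap had a GATA word without a CACC-type word, Gata1 the reverse, and Gfi1b and Epor both. These matches describe the letters of the windows only, and binding was not measured.

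Libraries labelled Tet2KO had less of 9 of the 10 transcripts than those labelled WT, and slightly more of Nfe2. All 10 passed the test (edgeR's quasi-likelihood test, Benjamini-Hochberg adjusted p under 0.05), where 32.8% of the genes tested did, 16.2% lower and 16.6% higher. The median log2 change of the 10 genes was -0.82, against a median of 0 over all genes. Over all genes 2378 were called higher and 2321 lower, and with scaling by library totals alone 3382 and 1377, a setting under which the 10 genes kept 1 call higher and 9 lower. The 7 that fell furthest lay between 1.66-fold and 1.89-fold lower, while Zfpm1 and Tfrc fell less. Libraries of the 2 groups did not overlap for any of the 10 genes, which held for 23.1% of the genes tested in the lower direction and 22.9% in the higher. In bulk RNA, fewer cells of a type and less RNA per cell cannot be told apart.

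**Figure D1:**
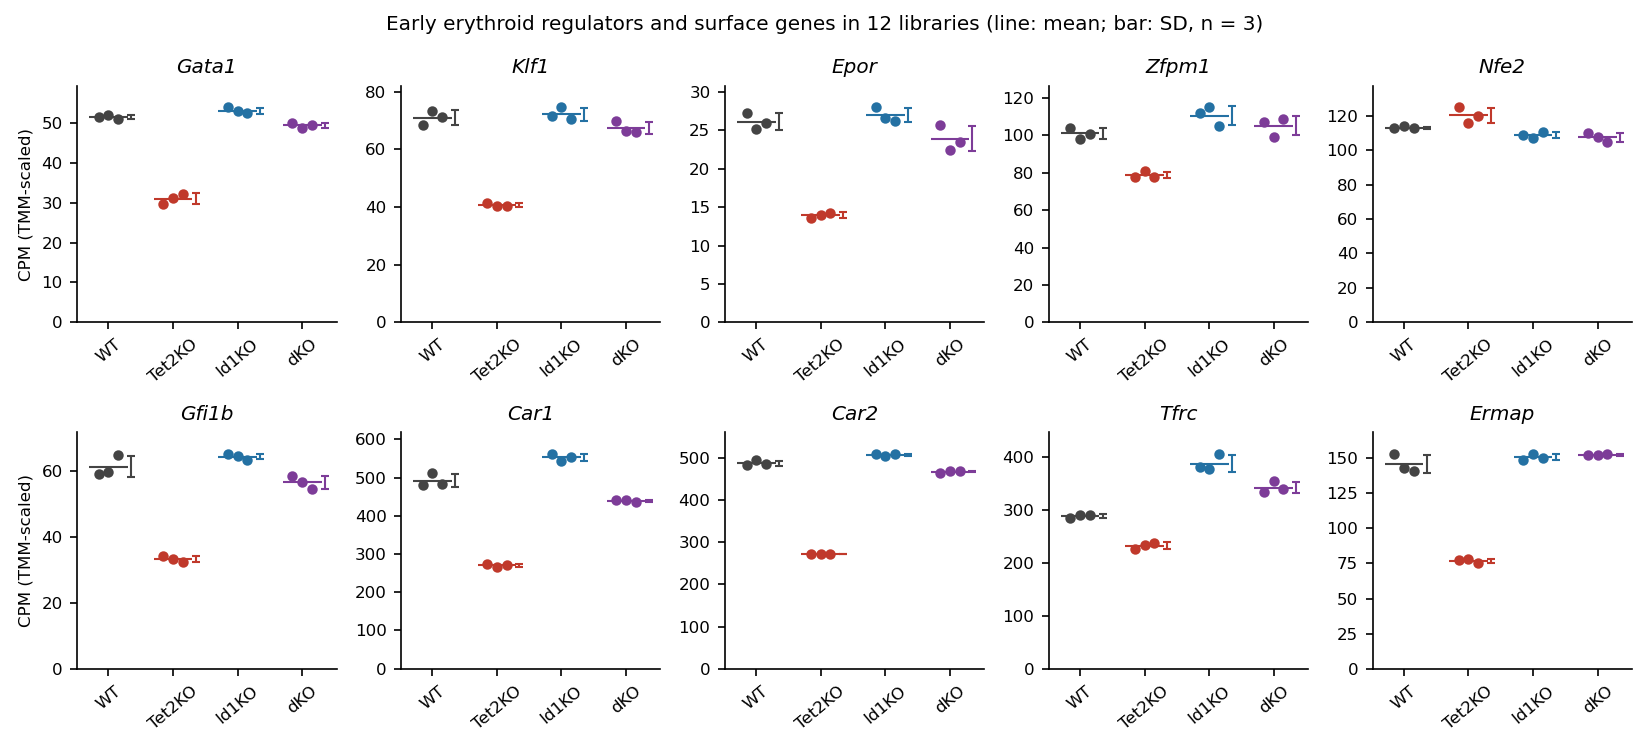
Scaled counts per 1000000 (CPM) of each of the 10 genes (vertical axes, linear, each panel with its own range) in the 12 libraries (points), by genotype label, with the mean (line) and SD (bar) of 3 libraries. Tet2KO libraries are the lowest in every panel except that of Nfe2, where they are the highest.

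Gata1, on X:7959260-7978071 of the minus strand (ENSMUSG00000031162.14; GENCODE M21 on GRCm38, as for all positions here), had 51.6, 52.1 and 51.0 CPM in the libraries labelled WT and 29.6, 31.1 and 32.3 in those labelled Tet2KO. It had 53.9, 53.1 and 52.4 CPM in Id1KO and 50, 48.8 and 49.4 in dKO. The Tet2KO values stand apart from a narrow band that holds the other 9 libraries. The log2 difference between Tet2KO and WT was -0.73 ± 0.043 (SE; adjusted p = 1.07e-10, edgeR), a level 1.66-fold lower. Gata1 is X-linked, and Xist, the RNA of the inactive X chromosome, averaged 262 CPM in WT and 64.8 in Id1KO, against 10.8 in Tet2KO and 16.7 in dKO. The sample titles name no sex. Xist differed with the genotype label, so what it reflects cannot be told apart from genotype, for Gata1 or for any other gene here. Its part in the results was not tested.

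Zfpm1, at 8:122282141-122337251 on the plus strand, encodes the GATA1 cofactor FOG1. It had 104, 98.2 and 101 CPM in WT, 77.6, 80.9 and 77.9 in Tet2KO, 112, 115 and 105 in Id1KO and 107, 99.4 and 109 in dKO. Only the Tet2KO libraries stood clear of all others, since WT overlapped dKO and dKO overlapped Id1KO. The log2 difference from WT was -0.36 ± 0.041 in Tet2KO (edgeR adjusted p = 1.05e-06), and it missed the threshold when tested against a change of 1.2-fold (adjusted p = 0.0517). Gm20388, a gene model that spans Zfpm1 on the same strand without a shared exonic base, averaged 64.7 CPM in WT and 53.7 in Tet2KO.

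Klf1, at 8:84901928-84905291 on the plus strand, showed 68.3, 73.3 and 71.3 CPM in WT and 41.5, 40.2 and 40.3 in Tet2KO. Values were 71.4, 74.5 and 70.4 CPM in Id1KO and 69.8, 66.2 and 66.0 in dKO. WT, Id1KO and dKO formed 1 overlapping run, with Tet2KO well below. The log2 difference between Tet2KO and WT was -0.8 ± 0.041 (edgeR adjusted p = 1.27e-11).

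Gfi1b, at 2:28609450-28621982 on the minus strand, encodes a repressor that red cell and platelet development both need. It had 59.2, 59.8 and 65.0 CPM in WT, 34.1, 33.2 and 32.3 in Tet2KO, 65.2, 64.5 and 63.5 in Id1KO and 58.6, 56.7 and 54.5 in dKO. WT and Id1KO overlapped, dKO lay just below both, and Tet2KO lay far below. The log2 difference between Tet2KO and WT was -0.89 ± 0.046 (edgeR adjusted p = 1.65e-11).

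Nfe2, at 15:103248212-103258403 on the minus strand, was the exception among the factors. Its values were 113, 114 and 113 CPM in WT, 125, 116 and 120 in Tet2KO, 109, 107 and 111 in Id1KO and 110, 108 and 105 in dKO. The highest group mean was 1.12-fold the lowest, the narrowest range of the 10 genes, with Tet2KO on top and Id1KO and dKO overlapping at the bottom. The rise from WT to Tet2KO was 0.09 ± 0.031 on the log2 scale (edgeR adjusted p = 0.0382). It lost the call in 5 of the 12 fits that left out 1 library, with the highest adjusted p, 0.208, without Tet2KO replicate 1, and also with DESeq2 (adjusted p = 0.104) and without the filter on low counts (adjusted p = 0.131).

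Epor, at 9:21958897-21963506 on the minus strand, encodes the erythropoietin receptor and was the scarcest of the 10 transcripts. It had 27.3, 25.2 and 26.0 CPM in WT, 13.6, 14.0 and 14.3 in Tet2KO, 28.0, 26.6 and 26.3 in Id1KO and 25.7, 22.5 and 23.5 in dKO. Tet2KO lay far below every other library, while the other groups overlapped in sequence. The log2 difference between Tet2KO and WT was -0.91 ± 0.063 (edgeR adjusted p = 1.24e-09), a level 1.87-fold lower.

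Tfrc, at 16:32608920-32632794 on the plus strand, encodes the transferrin receptor, which dividing cells of other lines also carry. It had 284, 290 and 289 CPM in WT, 226, 234 and 237 in Tet2KO, 380, 376 and 405 in Id1KO and 333, 354 and 338 in dKO. No groups overlapped, and Id1KO and dKO both lay above WT. The log2 difference between Tet2KO and WT was -0.31 ± 0.033 (edgeR adjusted p = 4.39e-07), and it was not called against a change of 1.2-fold (adjusted p = 0.268).

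Ermap, at 4:119175457-119190011 on the minus strand, encodes the erythroblast membrane-associated protein. It had 153, 143 and 141 CPM in WT, 77.7, 78.0 and 75.3 in Tet2KO, 149, 153 and 150 in Id1KO and 152, 152 and 153 in dKO. This gene had 1 low group and 3 groups that overlapped. Its log2 difference between Tet2KO and WT, -0.92 ± 0.033 (edgeR adjusted p = 4.35e-14), was the lowest of the 10, with the values of Epor, Gfi1b and Car1 within its 95% interval of -0.99 to -0.85.

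Car1 and Car2 lie near each other on chromosome 3 with Car3 between them, Car1 at 14766216 to 14808368 on the minus strand and Car2 at 14886273 to 14900770 on the plus strand. Car1 had 480, 513 and 484 CPM in WT, 273, 267 and 271 in Tet2KO, 562, 544 and 554 in Id1KO and 442, 441 and 437 in dKO. Car2 had 482, 494 and 485 CPM in WT, 272, 271 and 273 in Tet2KO, 509, 505 and 509 in Id1KO and 465, 468 and 468 in dKO. In both genes no groups overlapped, in the order Id1KO, WT, dKO and Tet2KO, but the gaps outside Tet2KO were wider in Car1. From WT to Tet2KO, Car1 fell by 0.87 ± 0.028 and Car2 by 0.84 ± 0.024 on the log2 scale (edgeR adjusted p = 9.45e-15 and 9.96e-16). An exonic stretch of Car1 is nearly identical to the gene model Gm5843, which had at most 2 counts in a library.

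The label Id1KO, without the Tet2KO label, went with small differences. Of the 10 genes, 3 were higher than in WT and none lower by edgeR, where 15% of the genes tested were called, 7.26% higher and 7.77% lower. The count lower was also 0 at an unadjusted threshold of 0.05 and with DESeq2. Tfrc, the iron uptake receptor, rose by 0.43 ± 0.032 on the log2 scale (adjusted p = 9.84e-09), Car1 by 0.17 ± 0.027 (adjusted p = 0.000286) and Zfpm1 by 0.13 ± 0.039 (adjusted p = 0.0335). Zfpm1 lost its call in 4 of the 12 fits without 1 library, with the highest adjusted p, 0.144, without Id1KO replicate 2, and with DESeq2 (adjusted p = 0.0557). For the erythroid factors the differences were 0.04 for Gata1 (95% interval -0.04 to 0.13), 0.02 for Klf1 (-0.06 to 0.1) and 0.07 for Gfi1b (-0.02 to 0.16), and for Epor 0.04 (-0.07 to 0.16). Scaling by library totals alone, which moved the median of all genes from -0.008 to 0.044, called 6 of the 10 genes.

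With the Tet2KO label, libraries labelled dKO had more of 9 of the 10 transcripts than those labelled Tet2KO, and less Nfe2. All 10 passed edgeR's test, where 26.4% of the genes tested did, 13.1% higher and 13.4% lower. The libraries of the 2 groups did not overlap for any of the 10 genes, as for 19.7% of the genes tested in the higher direction and 20.2% in the lower. The log2 difference was 0.67 ± 0.044 for Gata1 (adjusted p = 8.25e-10), 0.73 ± 0.042 for Klf1, 0.77 ± 0.048 for Gfi1b and 0.41 ± 0.041 for Zfpm1. The receptors differed by 0.77 ± 0.065 for Epor (adjusted p = 3.57e-08) and 0.56 ± 0.032 for Tfrc. Ermap, the surface gene, rose the furthest, by 0.99 ± 0.033 (adjusted p = 1.75e-14), or 1.98-fold. Car1 rose by 0.7 ± 0.029 and Car2 by 0.78 ± 0.024, and Nfe2 fell by 0.16 ± 0.032 (adjusted p = 0.000898). The comparison shares the Tet2KO libraries with that of Tet2KO against WT, so the 2 sets of values are not independent.

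Against WT, the dKO libraries differed little in most of the 10 genes. By edgeR 1 was higher and 1 lower, where 19.2% of the genes tested were called, 10.2% higher and 8.97% lower: Tfrc at 0.25 ± 0.032 on the log2 scale (adjusted p = 1.07e-05) and Car1 at -0.16 ± 0.028 (adjusted p = 0.000281). The differences of the genes that missed the threshold ran from -0.13 for Epor (95% interval -0.25 to -0.01) to 0.06 for Ermap (0 to 0.13). For Gata1 it was -0.06 (-0.15 to 0.02), for Klf1 -0.08 (-0.16 to 0 when rounded, unadjusted p = 0.0604), for Gfi1b -0.12 (-0.21 to -0.03) and for Car2 -0.06 (-0.11 to -0.01). Of the 8 intervals 4, those of Epor, Nfe2, Gfi1b and Car2, lay below 0, and the intervals of Gata1, Klf1 and Car2 held no fall beyond 0.16. The count of the 10 genes called was 2 to 4 when 1 library was left out, with 4 without WT replicate 1. Against Id1KO, the dKO libraries were lower in 5 of the 10 genes, where 19.3% of all tested were called, 8.7% lower: Car1 by -0.33, Gfi1b by -0.19, Tfrc and Epor by -0.18 each and Car2 by -0.12 on the log2 scale. The Epor call was lost in 4 of the 12 fits without 1 library (adjusted p up to 0.142, without dKO replicate 2) and with DESeq2 (adjusted p = 0.144).

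**Figure D2:**
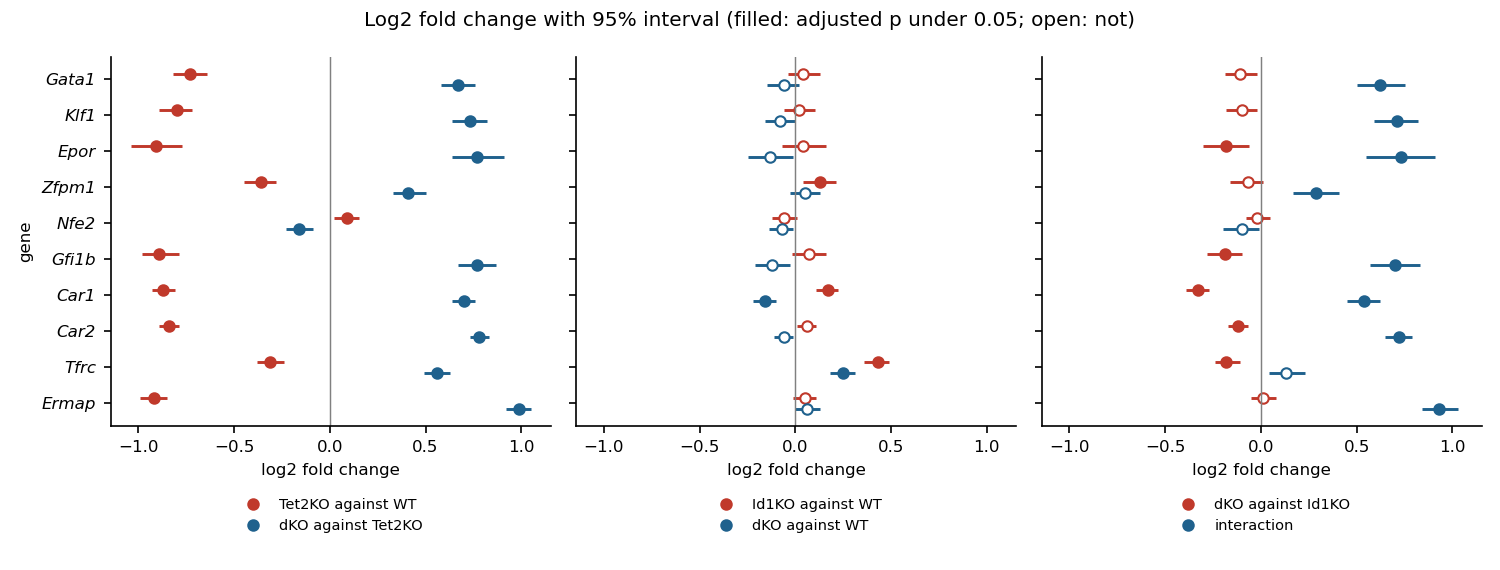
Log2 differences of the 10 genes (points) with 95% intervals from the edgeR fit (bars) in 6 comparisons, 2 to a panel by colour, with filled points for genes called and a line at 0. In Tet2KO against WT 9 genes lie below 0, in dKO against Tet2KO 9 lie above it, and in the middle panel Id1KO and dKO against WT hold values between -0.16 and 0.43.

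Whether the change that goes with the Id1KO label depended on the Tet2KO label was asked with the interaction, the log2 difference of dKO from Tet2KO less that of Id1KO from WT. It was above 0 and called for 8 of the 10 genes and below 0 and called for none, where 14.5% of the genes tested were called, 7.46% above 0 and 7.03% below. The value was 0.93 ± 0.045 for Ermap (edgeR adjusted p = 1.09e-11), 0.73 ± 0.086 for Epor, 0.72 ± 0.033 for Car2, 0.71 ± 0.057 for Klf1, 0.7 ± 0.063 for Gfi1b, 0.62 ± 0.059 for Gata1, 0.54 ± 0.04 for Car1 and 0.29 ± 0.057 for Zfpm1 (adjusted p = 0.00183). Tfrc, which rose with the Id1KO label on either background, had an interaction of 0.13 ± 0.045 (adjusted p = 0.0589). It was called without Id1KO replicate 3 (adjusted p = 0.0207) and also without the filter on low counts. Nfe2 had -0.1 ± 0.045 (adjusted p = 0.134) and was the 1 gene below 0 at an unadjusted threshold of 0.05, while DESeq2 called 0 below. With scaling by library totals alone 8 genes were called above 0 and 1 below. The interaction shares the Tet2KO libraries with the comparisons of Tet2KO with WT and with dKO, so these values are not independent.

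The balance of Gata1 against other factors was followed as log2 ratios of CPM per kilobase in each library. The ratio of Gata1 to Gata2, its forerunner in progenitors, was 0.36, 0.61 and 0.55 in WT, -0.08, 0.02 and 0.09 in Tet2KO, 0.34, 0.32 and 0.33 in Id1KO and 0.66, 0.67 and 0.67 in dKO. Tet2KO had near-equal levels of the 2 factors, and every other library had more Gata1. The ratio of Gata1 to Spi1, the PU.1 gene, averaged -1.75 ± 0.049 in Tet2KO, -0.94 ± 0.055 in dKO, -0.9 ± 0.029 in WT and -0.7 ± 0.024 in Id1KO. Spi1 exceeded Gata1 everywhere, most in Tet2KO. The ratio of Gata1 to its cofactor gene Zfpm1 averaged -0.45 ± 0.054 in WT and -0.82 ± 0.065 in Tet2KO. By contrast Klf1 to Gata1 stayed between 1.06 and 1.13 in all group means. Car1 to Car2 averaged 1.08 ± 0.018 in Id1KO, 0.97 ± 0.033 in WT, 0.95 ± 0.014 in Tet2KO and 0.87 ± 0.012 in dKO. For Car1 to Car2 the exact permutation p was 0.1 in every comparison except Tet2KO against WT. Differences between Tet2KO and WT were -0.5 for Gata1 to Gata2, -0.86 for Gata1 to Spi1, -0.37 for Gata1 to Zfpm1, -0.07 for Klf1 to Gata1 and -0.02 for Car1 to Car2. The two-sided exact permutation p was 0.1 for the first, the second and the third of these, the smallest that 3 against 3 libraries allow, 0.2 for Klf1 to Gata1 and 0.4 for Car1 to Car2. Adjusted over the 25 ratio comparisons, the smallest p was 0.156.

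**Figure D3:**
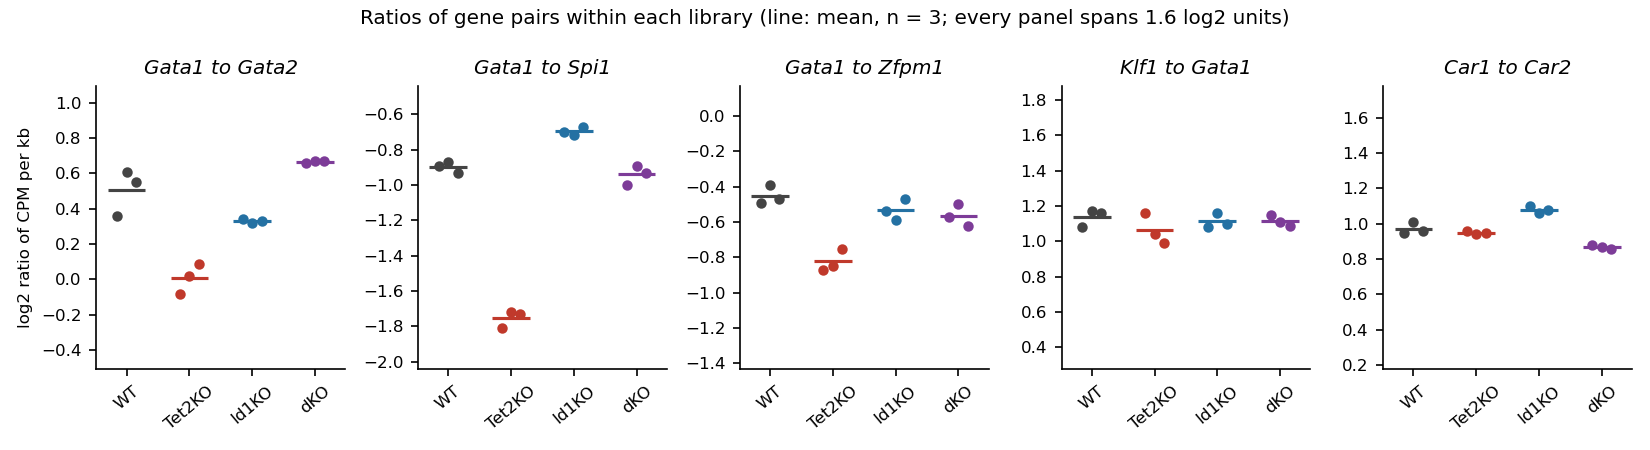
Log2 ratios of CPM per kilobase for 5 pairs of genes (panels) in each of the 12 libraries (points) by genotype label, with group means (lines). Tet2KO is lowest for Gata1 to Gata2, Gata1 to Spi1 and Gata1 to Zfpm1, and the Klf1 to Gata1 ratios of the groups overlap.

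Partners of GATA1 did not follow it as a group. The counts in the gene lists here and below stand against 32.8% of all genes tested called from WT to Tet2KO and 26.4% in dKO against Tet2KO. Of 11 genes of its complexes tested, 5 fell and 3 rose from WT to Tet2KO, with a median of -0.08. Gata2 and Tal1 each fell by 0.24, Ldb1 by 0.16 and Lmo2 by 0.11 on the log2 scale, while Runx1 rose by 0.24 and Cbfa2t3, a corepressor of the complex, by 0.45 (edgeR adjusted p = 8.21e-06). In dKO against Tet2KO 3 of the 11 rose and none fell, with Tal1 at 0.26. Of 8 corepressor subunits, among them the GFI1B partner gene Kdm1a at -0.09 ± 0.033, 2 fell from WT to Tet2KO and none rose, with a median of -0.02, a share called below that of all genes. Of 11 other erythroid factors 3 fell and 3 rose, with Klf3 at -0.32 and Sox6, a repressor of embryonic globin, at 0.67. Of 5 myeloid factors 2 rose and 2 fell, with Spi1 and Cebpa each at 0.12. In dKO against Tet2KO 4 of these 5 fell.

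Genes downstream of the receptors were mixed. Of 11 genes of erythropoietin receptor signalling tested, 4 rose and none fell from WT to Tet2KO, a share called near that of all genes, with a median of 0.05. In dKO against Tet2KO 1 rose and 3 fell. The 4 that rose from WT to Tet2KO were Socs3 at 0.92 ± 0.16, Cish at 0.82 ± 0.29, Sh2b3 at 0.27 ± 0.041 and Pim1 at 0.19 ± 0.032. Socs3, Cish and Sh2b3 encode inhibitors of cytokine receptor signalling and Pim1 a kinase induced by it, in many blood cells besides erythroid ones. Jak2 had 0 ± 0.04 and Stat5b 0.04 ± 0.027, and neither passed the test. Of 8 iron uptake genes 5 fell and 2 rose, with a median of -0.17. Slc11a2, the endosomal iron exporter, fell by 0.51, the ferrireductase gene Steap3 by 0.49 and the second transferrin receptor gene Tfr2 by 0.48, whereas Ireb2 rose by 0.25 and the mitochondrial importer Slc25a37 by 0.12. In dKO against Tet2KO 4 of these 8 rose and none fell.

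Red cell surface and membrane skeleton genes moved with Ermap in direction. Of 21 in the list 19 were tested, and from WT to Tet2KO 17 fell and none rose, with a median log2 difference of -0.9. The Rh-associated glycoprotein gene Rhag fell by 0.9 ± 0.061 and the water channel gene Aqp1 by 0.67 ± 0.033. The anion exchanger gene Slc4a1, with as few as 5 counts in a library, fell by 1.18 ± 0.37. The list's most abundant genes besides Aqp1 were Bsg, lower by 0.14 ± 0.028, and Cd47, at 0.05 ± 0.036 and not called. In dKO against Tet2KO 15 of the 19 rose and none fell, with a median of 0.81. In Id1KO against WT 1 rose and 1 fell, where 7.26% of all genes tested were called higher and 7.77% lower. Globin and heme enzyme genes gave 11 lower of 12 tested from WT to Tet2KO (median -0.55) and 11 higher from Tet2KO to dKO (median 0.51). The beta globin gene Hbb-bs fell by 0.78 ± 0.12, and the heme enzyme genes Alad by 0.49 ± 0.04 and Urod by 0.34 ± 0.047. Alas2, the erythroid enzyme of the first heme step, was at most 13 counts in a library, and its difference of 0.14 ± 0.47 missed the threshold. Of 14 other carbonic anhydrase genes 7 were tested and none was called from WT to Tet2KO by edgeR, with a median of 0.06. Reads of near-identical globin genes may have been split between copies. Where none of a list is given as risen or fallen in these paragraphs, DESeq2 called 0 too, and at an unadjusted threshold of 0.05 edgeR's count was also 0, except for 1 corepressor subunit higher and 1 signalling gene lower from WT to Tet2KO.

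**Figure D4:**
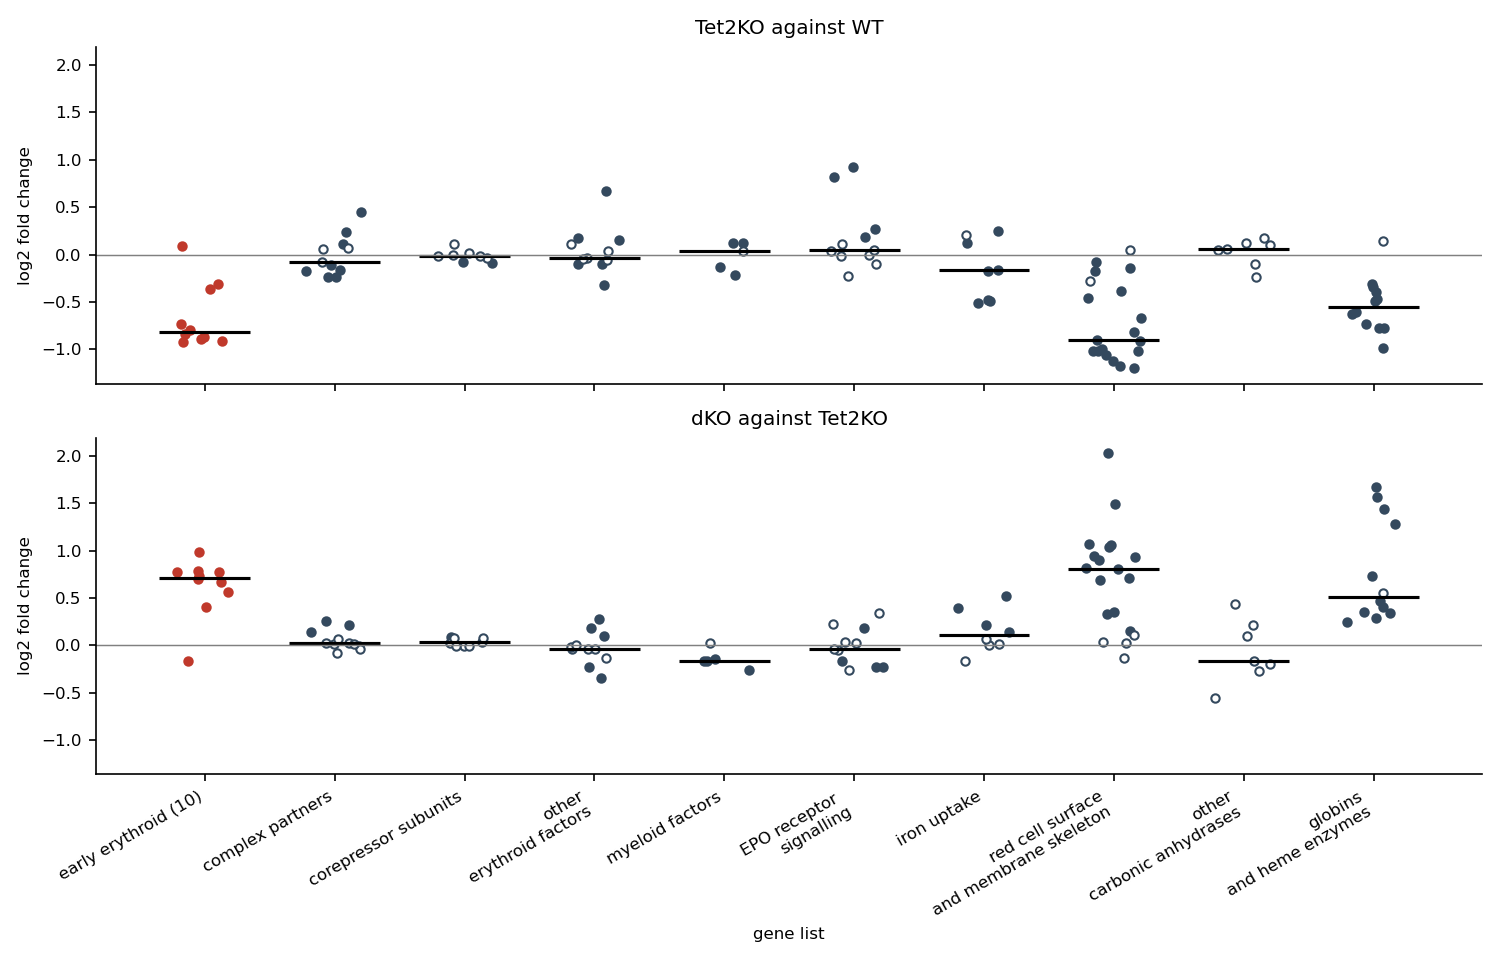
Log2 differences of the genes tested in each list (points, filled where called) and their medians (lines) for Tet2KO against WT and dKO against Tet2KO. The 10 early erythroid genes, the red cell surface genes and the globin and heme genes lie mostly below 0 in the first comparison and above it in the second, while the medians of the other lists lie between -0.17 and 0.11.

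Markers of other cells were read beside these values, and their part in the results was not tested. The summed level of 16 megakaryocyte markers was 245 to 253 CPM in WT, 251 to 264 in Tet2KO, 322 to 336 in Id1KO and 252 to 271 in dKO, and of 14 tested 4 rose and 2 fell from WT to Tet2KO. These cells share GATA1, FOG1, GFI1B and NF-E2 with the red line. The 11 mast cell and basophil markers summed to 270 to 281 CPM in WT and 281 to 289 in Tet2KO, against 260 to 272 in Id1KO and 237 to 242 in dKO, with the tryptase genes Tpsab1 and Tpsb2 at 0 in every library. The 6 eosinophil markers summed to 245 to 256 CPM in WT, 201 to 207 in Tet2KO, 339 to 349 in Id1KO and 175 to 186 in dKO. Stem cell markers summed to 92 to 96.6 CPM in WT, 101 to 107 in Tet2KO, 96 to 103 in Id1KO and 94.4 to 97.8 in dKO. Lymphoid markers summed to 105 to 109 CPM in WT, 142 to 148 in Tet2KO, 85.1 to 90.5 in Id1KO and 97.8 to 103 in dKO. From Tet2KO to dKO, where 9 of the 10 erythroid genes rose, 5 of 7 mast cell and basophil markers tested fell and none rose. Of 7 lymphoid markers tested 4 fell and none rose, with 2 lower by DESeq2. Of 14 megakaryocyte markers 3 rose and 2 fell, of 9 neutrophil markers 3 rose and 4 fell, and of 5 monocyte markers 2 rose and 1 fell. Of 6 eosinophil markers 1 fell and none rose, and of 7 stem cell markers 1 rose and 3 fell. Neutrophil granule and maturation markers summed to 14100 CPM in each library labelled WT and to 15500 to 15800 in Tet2KO, against 11800 to 12800 in Id1KO and 11600 to 12800 in dKO. Monocyte markers summed to 1000 to 1040 CPM in WT and 1010 to 1040 in Tet2KO, 923 to 942 in Id1KO and 1100 to 1140 in dKO. None of these sums fell in Tet2KO by as much as the 10 genes, whose sum was 1820 to 1860 CPM in WT, 1160 to 1170 in Tet2KO, 2020 to 2050 in Id1KO and 1800 to 1820 in dKO. Each sum follows its most abundant genes, such as Mpo with 9900 CPM in WT among the neutrophil markers. Single markers fell as far as the 10 genes, with Thbs1 (megakaryocyte) at -0.99 and Camp (neutrophil) at -0.92 from WT to Tet2KO. Of 9 neutrophil markers 5 rose and 2 fell in that comparison.

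To find genes with the most similar pattern, log2 CPM was centred on each gene's mean over the 12 libraries. The root mean square difference between 2 genes was then taken against each of 9775 other tested genes. Those had a mean of at least 5 CPM and a symbol that was not that of a gene model or clone. The comparison describes shared libraries and carries no test. The nearest gene to Gata1 was Aqp1, the water channel of the red cell membrane (0.045), followed by Klf1 (0.0523). The nearest to Klf1 was Car2 (0.0437), and Ermap had Add2, an adducin gene of the membrane skeleton, among its nearest 3 (0.0541). Car1 and Car2 had Abcb4 among their nearest 3, and Epor, Gfi1b and Car2 had C1qtnf12 at the first place. Zfpm1 and Tfrc had no other of the 10 genes among their nearest 3, which were Recql4, Fpgs and Shank3 for Zfpm1 and Il1rl1, Camsap2 and Hsph1 for Tfrc. For Nfe2 they were Ctsb, Lta4h and Glud1. Among the 10 genes themselves, Klf1 and Car2 were the closest pair and Nfe2 and Ermap the most distant (0.476).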

How the data were processed

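Donor Kit-positive, lineage-negative bone marrow cells gave 12 stranded total RNA libraries, 3 per genotype label. The authors deposited estimated counts per gene, not normalized, of which 4.92 to 5.26% per library were not whole. STAR, RSEM and mm10 are named in the submitters' processing notes, whose parameters are not given in the sources used here. All 55450 identifiers matched GENCODE M21 (GRCm38), which gave symbols, positions and exonic lengths.

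Values were rounded to whole counts, low genes were removed with filterByExpr (minimum count 10), and TMM factors were computed. A single quasi-likelihood model over the 12 libraries, with a mean for each genotype, was fitted in edgeR 4.0.16 under R 4.3.3. The 6 contrasts were tested two-sided with Benjamini-Hochberg adjustment over the 14346 genes tested at a threshold of 0.05. Standard errors and 95% intervals come from that fit. The common biological coefficient of variation was 0.0305 between libraries. All 12 pairs of libraries within a genotype differed by more than sampling noise and were kept apart.

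Alternatives were RLE scaling, library totals only, scaling without 3919 structural RNA genes, DESeq2 1.42.0, no filter, a stricter filter, only the compared libraries, omission of each library in turn, a replicate block, glmTreat at 1.2-fold and a threshold of 0.01. The steps were tested on simulated data. Counts of each gene list under the alternatives were added after the data were seen. The 10 genes and the lists were chosen with earlier results of these data known. Genes named from a list were its 3 most abundant tested members, and others were chosen after their values were seen. Tet2, Id1 and, for likeness, the 3 nearest genes to each of the 10 were named by rule, and some genes that the rules name are not reported here. Motifs were searched in RefSeq promoter windows of GRCm38.p6.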

Additional observations from a re-analysis of the deposited data

Results flagged for a closer look

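For 8 of the 10 genes the difference that goes with the Id1KO label was not the same with and without the Tet2KO label, by the interaction term of the edgeR fit (3 libraries per group). Those 3 libraries may be repeats of 1 cell sample, and p-values then measure only the spread between libraries. The log2 interaction was 0.62 for Gata1 (adjusted p = 3.69e-07), 0.71 for Klf1 (3.42e-08), 0.73 for Epor (7.44e-06) and 0.29 for Zfpm1 (0.00183). It was 0.7 for Gfi1b (2.08e-07), 0.54 for Car1 (1e-08), 0.72 for Car2 (5.37e-12) and 0.93 for Ermap (1.09e-11). In each of these genes the dKO libraries lay above all Tet2KO libraries.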

How the results depend on the processing

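No called value of the 10 genes changed direction under any alternative. Among the alternative values of single genes, 1263 kept their side of the threshold, 35 lost a call and 12 gained 1. Counts over the whole table follow 1 order: Tet2KO, Id1KO and dKO each against WT, then dKO against Tet2KO and Id1KO, then the interaction. They were 4699, 2156, 2754, 3793, 2762 and 2078 with edgeR at 0.05, and 3122, 1085, 1557, 2285, 1599 and 972 at adjusted p under 0.01. With glmTreat, which tests against a 1.2-fold change, they were 769, 140, 477, 334, 481 and 237. DESeq2 called 1418 genes in Id1KO against WT and 1350 in the interaction. Of the 10 genes, glmTreat called 1 in Id1KO against WT, 0 in dKO against WT and 0 in dKO against Id1KO, while edgeR's plain test called 3, 2 and 5. Library totals only called 6 in Id1KO against WT. It split all calls into 2118 higher and 625 lower there (1042 and 1114 with TMM), 2589 and 769 in dKO against WT (1467 and 1287), and 654 and 1681 in the interaction (1070 and 1008). Without 1 library at a time, the number of the 10 genes called was, in the same order, 9 to 10, 2 to 4, 2 to 4, 10, 4 to 5 and 8 to 9. The cause of these shifts was not tested.

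Correlations of deviations from the group means were weak, from -0.097 to 0.113 in 18 same-numbered pairs of libraries and from -0.104 to 0.174 in the others. A correlation over 0.1 occurred in 1 of the 18. Such weak values over all genes cannot decide whether the numbers in the titles pair the libraries. With a replicate block the calls over all genes were 4523, 1952, 2565, 3592, 2576 and 1871 in the order above, and no call among the 10 genes changed. Values of the 10 genes rest on at least 222 counts per gene and library, while Slc4a1, Cish and Alas2 had as few as 5, 12 and 3, which limits their precision.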
